A study of Rattus norvegicus with 32 samples.

Results

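The response of the jejunum to lactation was compared with the responses of the segments on either side of it, the duodenum and the ileum. For each transcript cluster the difference between lactating and control rats in the jejunum was taken, and the mean of the same difference over duodenum and ileum was subtracted from it. This quantity is called the jejunal contrast here. It is positive where a gene rose more, or fell less, in the jejunum than in its neighbours. It rests on the 24 intestinal arrays of the 32 arrays in the series, 8 from each segment, and the 8 liver arrays did not enter the fit. All 19434 clusters were tested, of which 13337 carry the symbol of a single gene.

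The rats were Sprague-Dawley females. The lactating group had nursed for 10 to 11 days, the control group was virgin and of the same age, and all were killed at hour 16 of the day under the same light cycle and diet. RNA of 4 rats was combined into each pool, and the same rats were pooled for every segment, so that each segment has 4 lactating and 4 control pools, and pools rather than single animals are the replicates. The samples were scrapes of the mucosa, which hold epithelium and the connective, vascular and immune cells beneath it, and the jejunum was a stretch taken some way beyond the ligament of Treitz. Expression was read from Affymetrix Rat Exon 1.0 ST arrays and is given as log2 values, on which a difference of 1 is a doubling. In these tissue scrapes fewer cells of a type and less RNA per cell cannot be told apart.

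In the small intestine, food is met in order by the duodenum, which takes up much of the iron and calcium, by the jejunum, where most fat, sugar and protein is absorbed, and by the ileum, which recovers bile acids. Nursing raises food intake and the need for calcium, fat and other milk constituents, and the small intestine of nursing rats is known to grow. Calcium crosses the enterocyte through the apical channel Trpv6, the cytosolic carrier S100g and the basolateral pump Atp2b1. Ferrous iron enters through Slc11a2. Cholesterol is made inside the enterocyte by a chain of enzymes that sterol regulatory element binding proteins (Srebp) switch on together.

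The promoters of 4 genes on which the account turns are shown so that their upstream sequence can be set beside their values: Trpv6 and Slc11a2, whose contrasts were among the highest, and Scd2 and Dhcr7, whose contrasts were low. Each is the 250 bases before a RefSeq start site on the rat build GRCr8, written 5′ to 3′ in the direction of the gene. Slc11a2 has 2 start sites in that annotation, and both are printed.
Trpv6 (chr4:71489668-71489917, minus strand): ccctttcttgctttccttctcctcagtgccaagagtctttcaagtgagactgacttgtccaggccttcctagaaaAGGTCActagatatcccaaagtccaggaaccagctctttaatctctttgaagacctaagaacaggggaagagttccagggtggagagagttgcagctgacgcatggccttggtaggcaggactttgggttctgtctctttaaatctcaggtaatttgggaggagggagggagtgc
Slc11a2, start site 1 (chr7:133417789-133418038, minus strand): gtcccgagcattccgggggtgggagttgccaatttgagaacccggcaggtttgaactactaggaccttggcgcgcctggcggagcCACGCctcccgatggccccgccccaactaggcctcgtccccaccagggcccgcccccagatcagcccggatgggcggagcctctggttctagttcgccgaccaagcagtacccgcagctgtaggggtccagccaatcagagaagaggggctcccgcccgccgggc
Slc11a2, start site 2 (chr7:133418940-133419189, minus strand): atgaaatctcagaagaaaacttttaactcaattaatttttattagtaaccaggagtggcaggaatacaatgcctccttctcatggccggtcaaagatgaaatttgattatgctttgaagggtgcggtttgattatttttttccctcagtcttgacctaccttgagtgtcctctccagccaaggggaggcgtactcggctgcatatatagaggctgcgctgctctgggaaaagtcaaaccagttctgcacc
Scd2 (chr1:253118127-253118376, plus strand): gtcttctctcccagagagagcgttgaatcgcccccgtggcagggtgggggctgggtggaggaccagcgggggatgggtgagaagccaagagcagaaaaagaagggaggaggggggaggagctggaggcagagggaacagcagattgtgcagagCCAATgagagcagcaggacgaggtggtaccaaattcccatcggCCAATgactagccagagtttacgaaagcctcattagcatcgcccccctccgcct
Dhcr7 (chr1:208444184-208444433, plus strand): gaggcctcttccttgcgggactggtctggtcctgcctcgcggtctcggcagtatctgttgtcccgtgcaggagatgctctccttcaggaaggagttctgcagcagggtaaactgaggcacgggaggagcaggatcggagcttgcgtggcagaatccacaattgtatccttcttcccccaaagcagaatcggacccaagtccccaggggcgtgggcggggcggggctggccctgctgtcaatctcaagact
Capitals mark matches on either strand to AGGTCA, the core site of nuclear receptors such as the vitamin D receptor, in Trpv6. In Slc11a2 they mark ACGTG or GCGTG, the core site of the hypoxia factors, of which Epas1 is a member. In Scd2 and Dhcr7 they mark CCAAT, the site of NF-Y, which often stands beside Srebp. Of the 33469 RefSeq promoters of this length, AGGTCA was found in 14.1%, ACGTG in 16.6%, GCGTG in 25.9% and CCAAT in 34.0%. Trpv6 had 1 match, Slc11a2 had 1 match at start site 1 and none at start site 2, Scd2 had 2 matches and Dhcr7 had none. These are matches of letters only.

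Lactation moved 41 clusters differently in the jejunum than in the mean of its neighbours, which is 0.211% of the clusters tested (limma, pools as random blocks, Benjamini-Hochberg adjusted p under 0.05 over all clusters). The contrast was higher in 21 (0.108%) and lower in 20 (0.103%), and 37 of the 41 are named. Only 10 of the 21 higher and 10 of the 20 lower calls also had a called difference in the jejunum itself. Against each neighbour alone, 58 clusters (0.298%) were called for the jejunum against the duodenum and 42 (0.216%) for the jejunum against the ileum. The 3 comparisons share the jejunal arrays. The number of calls rose when weakly expressed clusters were left out. Over the 7806 clusters with a group mean of 6 or more, 297 (3.8%) were called, 85 higher (1.09%) and 212 lower (2.72%). Their median contrast was -0.082, beside -0.017 over all clusters. A fit with the replicate number as a block called 42 clusters (0.216%), of which 26 were among the 41.

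A total of 7 clusters (0.036%) were called against the mean, against the duodenum and against the ileum alike. Trpv6, the metalloprotease gene Ecel1 and the leukotriene C4 synthase gene Ltc4s were the 3 higher ones. The 4 lower ones were Adipoq (the fat cell hormone adiponectin), Cdo1 (cysteine dioxygenase, which starts the path to taurine), Glb1l2 (a beta-galactosidase-like protein) and Txndc12 (a thioredoxin-like protein of the endoplasmic reticulum).

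**Figure D1:**
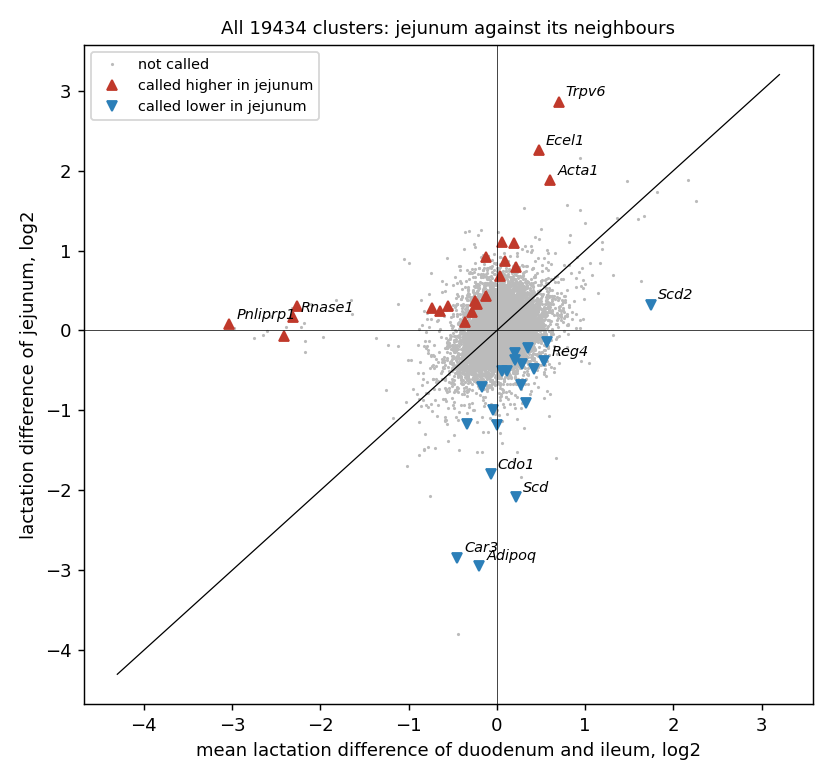
Lactation difference of the jejunum (vertical axis, log2) against the mean difference of duodenum and ileum (horizontal axis, log2), 1 point per cluster, with the line of equal difference and triangles for the 41 called clusters. Trpv6, Ecel1 and Acta1 lie far above the line through a rise in the jejunum, Adipoq, Car3, Scd and Cdo1 far below it through a fall in the jejunum, and Pnliprp1 and Rnase1 above it through the fall in the duodenum, with no called jejunal difference.

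Trpv6 and Slc11a2, of calcium and iron uptake, stood among the highest contrasts. Of the measured phosphate transporters 2 of 5 had a contrast below 0, beside 53.3% of all clusters. Of the zinc transporters and metallothioneins 5 of 8 did. Trpv6 rose 7.27-fold in the jejunum and 2.49-fold in the duodenum. In the jejunum its log2 values were 5.23, 4.27, 4.62 and 4.87 in control pools 1 to 4 and 7.82, 7.95, 7.70 and 6.97 in lactating pools 1 to 4. The lowest lactating pool was thus above the highest control pool by a wide margin. The control level of the jejunum lay near that of the ileum (4.42 to 4.63), and the lactating level was between those of the ileum and the duodenum. In the duodenum, where the channel is abundant, the values moved from 9.65 to 10.24 in control to 11.13 to 11.46 in lactating pools. In the ileum the states overlapped, with 4.42 to 4.63 against 4.39 to 5.30. The jejunal contrast was 2.16 ± 0.25 (SE, adjusted p = 0.000284). The jejunal rise exceeded that in the duodenum by 1.54 ± 0.29 (adjusted p = 0.0149) and that in the ileum by 2.78 ± 0.29 (adjusted p = 4.59e-05).

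S100g, also known as calbindin-D9k, had a different distribution along the gut. In the jejunum its values were 11.62, 10.46, 10.28 and 9.80 in control pools and 13.01, 12.80, 12.69 and 12.27 in lactating pools, a 4.45-fold rise (adjusted p = 0.000795). It also rose in the ileum, by 1.81 (adjusted p = 0.00381), and in the duodenum the states overlapped at 13.10 to 13.52 and 13.24 to 13.58. The jejunal rise was larger than the duodenal difference by 2.07 ± 0.40 (adjusted p = 0.0158), but against the mean of both neighbours the contrast of 1.21 ± 0.34 did not pass (adjusted p = 0.154). Atp2b1 differed by 0.59 in the jejunum (adjusted p = 0.0397), with a contrast of 0.30 ± 0.15 (adjusted p = 0.435). Cldn2, a pore of the tight junction, rose in all 3 segments (duodenum 0.84, jejunum 0.82 and ileum 0.79), and its contrast was 0.01 ± 0.17. Its segment calls ended without lactating pool 3, and the jejunal one also without control pool 2 and the duodenal one without control pool 4. Over the 9 measured genes of calcium absorption and vitamin D action, 1 was called for the contrast (beside 0.108% of all clusters called higher). Over the clusters with a group mean of 6 or more, 2 of them were called higher (beside 1.09%). In the jejunum 4 of them rose (beside 0.324% of all clusters), 2 rose in the duodenum (beside 0.407%) and 2 rose in the ileum (beside 0.54%). Vdr, the vitamin D receptor, fell in the ileum by 0.48 (adjusted p = 0.036), the only 1 of the 9 to fall there (beside 0.854%). The median contrast of the list was 0.11, beside -0.02 over all clusters.

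Slc11a2, the intestinal importer of ferrous iron, rose 2.14-fold in the jejunum and 1.66-fold in the duodenum, and its ileal difference was -0.34 (adjusted p = 0.225). Its jejunal values were 8.51, 8.37, 8.31 and 8.16 in control and 9.30, 9.55, 9.67 and 9.22 in lactating pools. The ileal values were 8.52 to 8.58 in control and 8.13 to 8.37 in lactating pools, so the lactating ileal pools all lay below the control ones. The contrast was 0.90 ± 0.14 (adjusted p = 0.00328). The jejunum stood apart from the ileum (difference 1.44 ± 0.16, adjusted p = 5.53e-05) and not detectably from the duodenum (0.37 ± 0.16, adjusted p = 0.423). Among the 8 measured genes of iron absorption it was the only one called (beside 0.108% of all clusters called higher). Of the 8, 4 had a contrast below 0 (beside 53.3% of all clusters). Tfrc, the transferrin receptor, had means of 6.92 in control and 6.85 in lactating jejunum. Its means were 8.35 and 8.69 in the duodenum and 8.07 and 8.64 in the ileum. Hmox1, the haem-degrading oxygenase, rose by 1.51 in the jejunum and by 1.41 in the duodenum (contrast 0.57 ± 0.21, adjusted p = 0.293). Slc40a1, the iron exporter ferroportin, rose by 0.99 in the jejunum (adjusted p = 0.0217), with a contrast of 0.60 ± 0.22 (adjusted p = 0.285).

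Ecel1, an endopeptidase of the neprilysin family, had the smallest adjusted p among the named genes. Its jejunal values were 4.74, 4.57, 4.93 and 4.7 in control and 6.76, 7.0, 6.72 and 7.49 in lactating pools, a 4.77-fold rise. In the duodenum it rose 1.89-fold, from 4.81 to 5.16 in control to 5.51 to 6.10 in lactating pools, and in the ileum it stayed between 3.85 and 4.08 in all 8 pools. The order of the rises was therefore jejunum, duodenum, ileum, and each neighbouring pair in that order differed: the jejunum exceeded the duodenum by 1.33 ± 0.18 (adjusted p = 0.000498), and duodenum and ileum also differed (adjusted p = 0.0218). The contrast was 1.78 ± 0.15 (adjusted p = 2.84e-06).

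Ltc4s, which makes the inflammatory lipid leukotriene C4, rose in the jejunum, and neither neighbour had a called difference. Its values there were 6.45, 6.77, 6.53 and 6.45 in control and 7.28, 7.74, 7.64 and 7.21 in lactating pools, a 1.89-fold rise. The duodenal difference was 0.00 and the ileal difference -0.24 (adjusted p = 0.466). The contrast was 1.04 ± 0.14 (adjusted p = 0.000665). Agpat3, an acyltransferase of phospholipid and triglyceride synthesis, rose 1.83-fold in the jejunum, from 6.59 to 6.66 in control to 7.26 to 7.73 in lactating pools, with a contrast of 0.78 ± 0.14 (adjusted p = 0.0153). That call ended without control pool 1, 2 or 3 or lactating pool 1 (adjusted p = 0.0512, 0.0916, 0.112 and 0.0527).

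Acta1, the actin of skeletal muscle, rose 3.69-fold in the jejunum. Its values there were 8.59, 8.56, 9.07 and 8.86 in control and 10.07, 11.04, 10.57 and 10.94 in lactating pools. It also rose in the ileum by 0.96 (adjusted p = 0.0145), and the jejunal rise exceeded the duodenal difference (1.63 ± 0.25, adjusted p = 0.00177) but not detectably the ileal rise (0.92 ± 0.25, adjusted p = 0.147). The contrast was 1.28 ± 0.21 (adjusted p = 0.0089). It was lost without control pool 1, 2 or 4 or lactating pool 3 (adjusted p = 0.0509, 0.0609, 0.0514 and 0.0612). The 8 measured markers of smooth muscle, fixed as a list, had a median contrast of 0.15 and no call. Their mean level was 6.07 to 6.72 in control and 6.11 to 6.74 in lactating jejunal pools.

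Ces2c, a carboxylesterase, rose 2.16-fold in the jejunum and 1.71-fold in the duodenum, with an ileal difference of -0.67 (adjusted p = 0.0602, and 0.0359 with the replicate number as a block). Its contrast of 1.06 ± 0.19 (adjusted p = 0.0153) rested on the ileum, since jejunum and duodenum did not differ detectably (adjusted p = 0.623). With the replicate block the contrast was not called (adjusted p = 0.0596). Without control pool 1, 2 or 4 or lactating pool 3 or 4 its adjusted p was 0.0621, 0.0916, 0.065, 0.0518 and 0.0636. Slc28a2, a sodium-driven nucleoside importer, rose 1.60-fold in the jejunum (10.65 to 11.11 in control and 11.37 to 11.71 in lactating pools). Its contrast of 0.64 ± 0.13 (adjusted p = 0.0431) was likewise lost with the block (adjusted p = 0.0666) and without 6 of the 8 pools in turn, at up to 0.202.

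**Figure D2:**
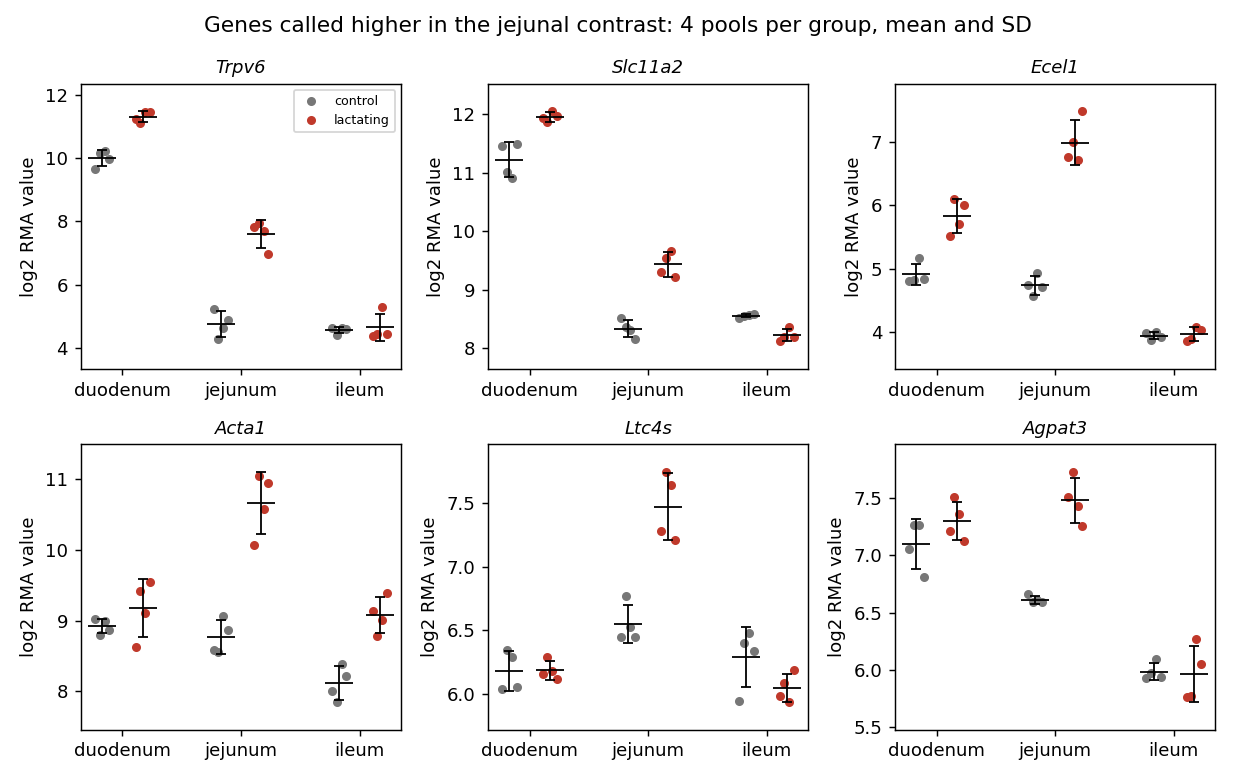
Log2 values of 6 genes called higher in the jejunal contrast, by segment, with grey points for the 4 control and red points for the 4 lactating pools and black bars for mean and SD. The 6 genes were chosen among those called, and Trpv6 and Slc11a2 sit higher in the duodenum of both states than in the jejunum.

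The lowest called contrasts included genes of fat cells and of fat synthesis. Adipoq fell in the jejunum from 5.79, 6.41, 6.19 and 7.0 in control pools to 2.93, 3.64, 3.63 and 3.43 in lactating pools, that is to 0.13 of the control level. The lactating jejunal values lay at the level of the duodenum, where both states stood between 3.07 and 3.56. The ileal values overlapped, with 3.36 to 4.7 in control and 3.21 to 4.63 in lactating pools. The contrast was -2.74 ± 0.34 (adjusted p = 0.000415).

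Car3, a carbonic anhydrase that is abundant in fat and muscle, followed with a jejunal fall of 2.84 on the log2 scale. Its jejunal values were 8.02, 8.23, 8.28 and 8.6 in control and 5.04, 5.99, 5.96 and 4.75 in lactating pools, while the duodenum held at 4.58 to 5.31 in both states. The contrast was -2.39 ± 0.37 (adjusted p = 0.0043). The ileum differed by -0.89 (adjusted p = 0.252), and the jejunal fall was not detectably larger than that (adjusted p = 0.0621). Cdo1 fell by 1.80 in the jejunum, from 5.82, 6.09, 6.13 and 6.38 to 3.65, 4.59, 4.57 and 4.41, and had a contrast of -1.73 ± 0.23 (adjusted p = 0.000712). In the other segments its values lay between 4.15 and 5.26 in both states, so the lactating jejunum reached the range of its neighbours.

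Scd, the stearoyl-CoA desaturase that makes oleic acid, fell in the jejunum by 2.08 (adjusted p = 0.0145). Its control pools were widely spread at 5.46, 6.47, 6.66 and 7.84, above the lactating pools at 3.54, 4.75, 5.22 and 4.59. The contrast was -2.30 ± 0.45 (adjusted p = 0.0327). It ended without control pool 2, 3 or 4 or lactating pool 1 or 4 (adjusted p = 0.101, 0.135, 0.0867, 0.0688 and 0.161). Thrsp, a nuclear protein that promotes fat synthesis, fell by 1.27 in the jejunum (adjusted p = 0.0167), with a contrast of -1.17 ± 0.28 (adjusted p = 0.0816). Of the 10 measured genes of fatty acid synthesis, 9 had a contrast below 0, beside 53.3% of all clusters, and 1 was called (beside 0.103% called lower). The median was -0.32, beside -0.02 over all clusters and -0.082 over those with a group mean of 6 or more. Acaca and Fads1, which start fatty acid synthesis and desaturate long chains, had contrasts of -0.55 and -0.51 (adjusted p = 0.209 and 0.151).

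The marker list of adipocytes held 9 measured genes. Their mean level was 6.62 to 6.72 in control and 5.86 to 6.14 in lactating jejunal pools, beside 5.61 to 5.99 and 5.71 to 6.20 in the duodenum and 5.41 to 5.63 and 5.27 to 5.44 in the ileum. The list includes Adipoq, which was itself called for the contrast, and no level without it was computed. Besides Adipoq, the lipase gene Lpl was called lower in the jejunum (-1.28, adjusted p = 0.0272), so that 2 of the 9 fell there (beside 0.473% of all clusters). Lpl had a contrast of -1.32 ± 0.30 (adjusted p = 0.0686). Fabp4, the fatty acid carrier of fat cells, differed by -0.76 in the jejunum (adjusted p = 0.552, and 0.034 with the replicate block). Its values were 7.31, 7.84, 7.62 and 6.30 in control and 6.76, 7.38, 6.75 and 5.13 in lactating jejunal pools, lower in pool 4 in both states. The defining markers Plin1 (4.36 to 5.10 in control and 4.29 to 4.64 in lactating jejunal pools) and Lep (2.67 to 4.40 and 2.47 to 3.46) were low in every segment. Cidec, a lipid droplet protein, was high in the jejunum of both states (10.36 to 10.77 and 10.73 to 10.98). In all, 7 of the 9 had a contrast below 0 (beside 53.3% of all clusters) and 1 was called (beside 0.103% called lower). The list level, Adipoq included, moved with Car3, Scd and Cdo1, and its part in their differences was not tested.

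**Figure D3:**
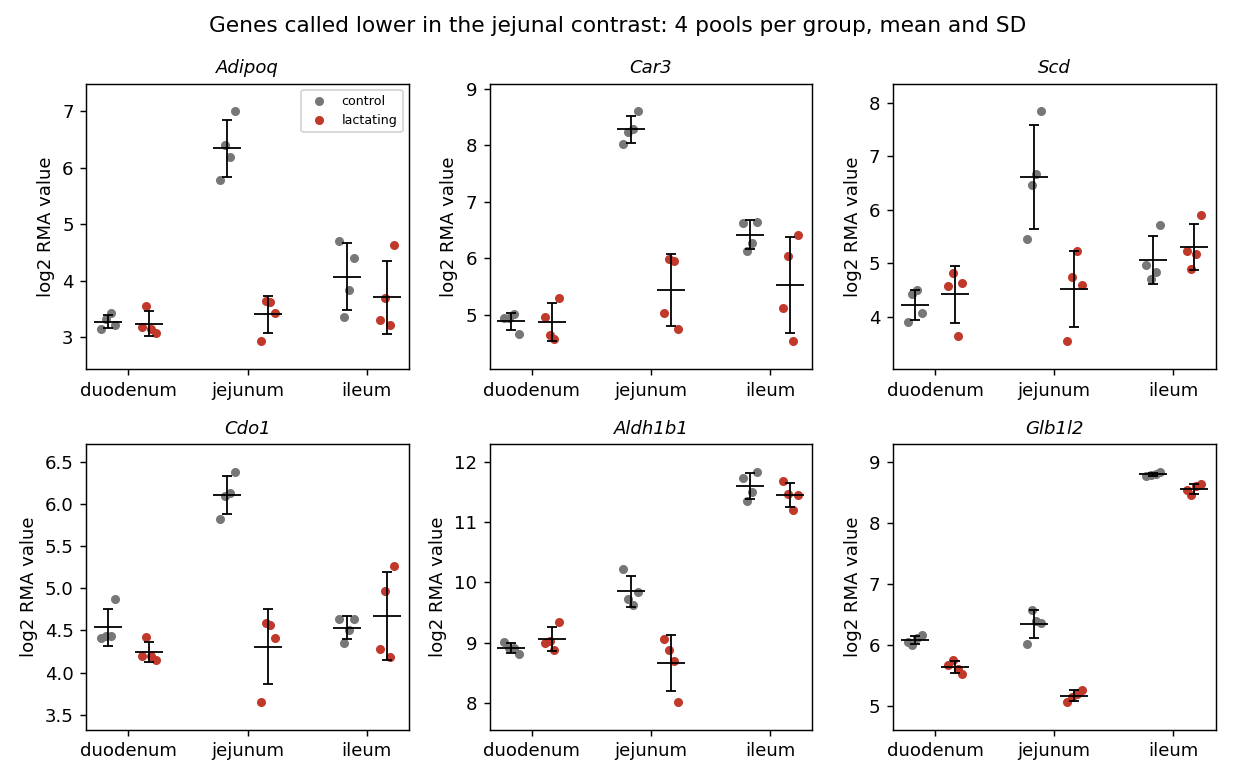
Log2 values of 6 genes called lower in the jejunal contrast, by segment, with grey points for the 4 control and red points for the 4 lactating pools and black bars for mean and SD. For Adipoq and Cdo1 the lactating jejunum falls to the level of the duodenum, while Aldh1b1 and Glb1l2 stay highest in the ileum in both states.

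Glb1l2, Aldh1b1 and Slc13a1 also had lower contrasts with a called fall in the jejunum. Glb1l2 fell in the jejunum from 6.02, 6.57, 6.39 and 6.36 to 5.06, 5.15, 5.20 and 5.26 and by less in the duodenum (-0.44, adjusted p = 0.0293), with a contrast of -0.83 ± 0.10 (adjusted p = 0.000415). The duodenal fall was not called without control pool 3 or 4 or lactating pool 1, 3 or 4. Aldh1b1, a mitochondrial aldehyde dehydrogenase, fell in the jejunum to 0.44 of control, from 10.22, 9.72, 9.63 and 9.84 to 9.07, 8.89, 8.70 and 8.02. The other segments showed no called difference, and the contrast was -1.18 ± 0.20 (adjusted p = 0.00892). Without control pool 1 or 2 the adjusted p was 0.0509 and 0.0625. Slc13a1, the sodium and sulfate cotransporter, fell in the jejunum from 10.81 to 11.25 in control to 9.71 to 10.62 in lactating pools. Its contrast was -0.96 ± 0.16 (adjusted p = 0.0089), lost without control pool 2 or 4 or lactating pool 3 or 4 (adjusted p = 0.0916, 0.0671, 0.0688 and 0.0966).

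Some low contrasts carried no called jejunal fall. Capsl, a calcyphosine-like protein, differed by -0.91 in the jejunum (adjusted p = 0.0504, and 0.0183 with the replicate block), and its contrast of -1.24 ± 0.24 was called (adjusted p = 0.0303) but not with the block (0.0532). Riox2, a ribosomal oxygenase, differed by -0.69 in the jejunum (adjusted p = 0.0802, and 0.0139 with the block), with a contrast of -0.96 ± 0.20 (adjusted p = 0.0431). Txndc12 differed by -0.22 in the jejunum, by 0.31 in the duodenum (adjusted p = 0.136, and 0.0269 with the block) and rose by 0.38 in the ileum (adjusted p = 0.0327). Its contrast was -0.57 ± 0.10 (adjusted p = 0.0089), and the jejunal difference was below both the duodenal and the ileal one (adjusted p = 0.0318 and 0.0163). Sult2a2, a sulfotransferase, was read at 1.42 to 2.25 in all 24 pools, near the floor of the array, and its contrast of -0.58 ± 0.12 (adjusted p = 0.0494) was lost with the block (0.0666). These calls ended without 5 of the 8 pools in turn for Capsl, 7 for Riox2, 3 for Txndc12 (control pools 2 and 3 and lactating pool 3) and 7 for Sult2a2, with adjusted p up to 0.146, 0.185, 0.0916 and 0.193.

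None of the 9 measured brush border enzymes was called for the contrast over all clusters. Over the clusters with a group mean of 6 or more, 2 of them were called lower (beside 2.72%). Plb1, a phospholipase of the brush border, had the lowest contrast of any list member without being called over all clusters. Its jejunal values were 8.91, 10.06, 8.22 and 9.21 in control and 5.11, 6.38, 4.95 and 4.79 in lactating pools, a fall of 3.79 that was called in the jejunum (adjusted p = 0.00852). Lactating pool 4 of the duodenum read 7.0 where the other 7 duodenal pools read 4.09 to 4.33, and lactating pool 3 of the ileum read 7.94 where the others read 10.66 to 12.46. The contrast was -3.36 ± 0.77 (adjusted p = 0.0686). The jejunal fall differed by -4.49 ± 0.89 (adjusted p = 0.0225) from the duodenal difference, which was 0.69 and did not pass (adjusted p = 0.838), and not detectably from the ileal difference of -1.57 (adjusted p = 0.362).

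Enzymes of cholesterol synthesis had lower lactation differences in the jejunum than in the mean of its neighbours. All 15 measured enzymes considered here had a jejunal contrast below 0, beside 53.3% of all clusters. Their median was -0.35, beside -0.02 over all clusters and -0.082 over the clusters with a group mean of 6 or more. All 15 were among the latter. Only 1 of the 15, Dhcr7, was called for the contrast (beside 0.103% of all clusters called lower). Over the clusters with a group mean of 6 or more, Idi1 and Nsdhl were added to it (adjusted p = 0.0291 and 0.0171). Of those clusters, 2.72% were called lower. In the duodenum 12 of the 15 rose, in the jejunum 2 rose and in the ileum 8 rose (beside 0.407%, 0.324% and 0.54% of all clusters), with median differences of 0.76, 0.40 and 0.60. With the replicate number as a block the counts were 13, 6 and 15, beside 2.26%, 1.35% and 2.49% of all clusters. The mean level of the 15 enzymes was lowest in the jejunum in both states: 8.13 to 8.38 in control and 8.45 to 8.77 in lactating pools, against 8.77 to 8.99 and 9.52 to 9.86 in the duodenum and 9.13 to 9.40 and 9.62 to 10.13 in the ileum.

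Dhcr7, which carries out the last reduction to cholesterol, read 8.94, 9.13, 8.66 and 8.85 in control and 8.71, 8.86, 8.81 and 8.62 in lactating jejunal pools, and the states overlapped. In the duodenum it rose by 0.62 (adjusted p = 0.0292), and in the ileum it differed by 0.51 (adjusted p = 0.0634, and 0.00908 with the replicate block). The contrast was -0.72 ± 0.15 (adjusted p = 0.0445), and leaving out any pool but lactating pool 1 ended the call, at an adjusted p of 0.0597 to 0.216. Idi1 and Nsdhl, of the isoprenoid and the later sterol steps, followed with contrasts of -0.59 ± 0.17 and -0.48 ± 0.11 (adjusted p = 0.154 and 0.0816). Idi1 rose by 1.07 in the duodenum and 0.90 in the ileum, and its jejunal difference was 0.40 (adjusted p = 0.283).

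The enzymes with a called rise in the jejunum were Sqle and Cyp51, of the squalene and lanosterol steps. Fdft1 and Msmo1 were not among them. Fdft1 read 8.65 to 9.00 in control and 9.19 to 9.48 in lactating pools, and Msmo1 9.22 to 9.55 and 9.71 to 10.15. Sqle went from 8.23, 8.16, 7.96 and 7.81 in control to 9.12, 8.89, 8.68 and 8.61 in lactating pools, a rise of 0.78 (adjusted p = 0.0123), and Cyp51 rose by 0.58 (adjusted p = 0.03). Their contrasts of -0.18 ± 0.17 and -0.42 ± 0.14 did not pass (adjusted p = 0.724 and 0.228). Of the 12 enzymes with a RefSeq promoter, 9 held CCAAT in the 250 bases before at least 1 of their start sites. This counts genes, while the share of 34.0% counts single promoters, so the figures are not directly comparable.

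**Figure D4:**
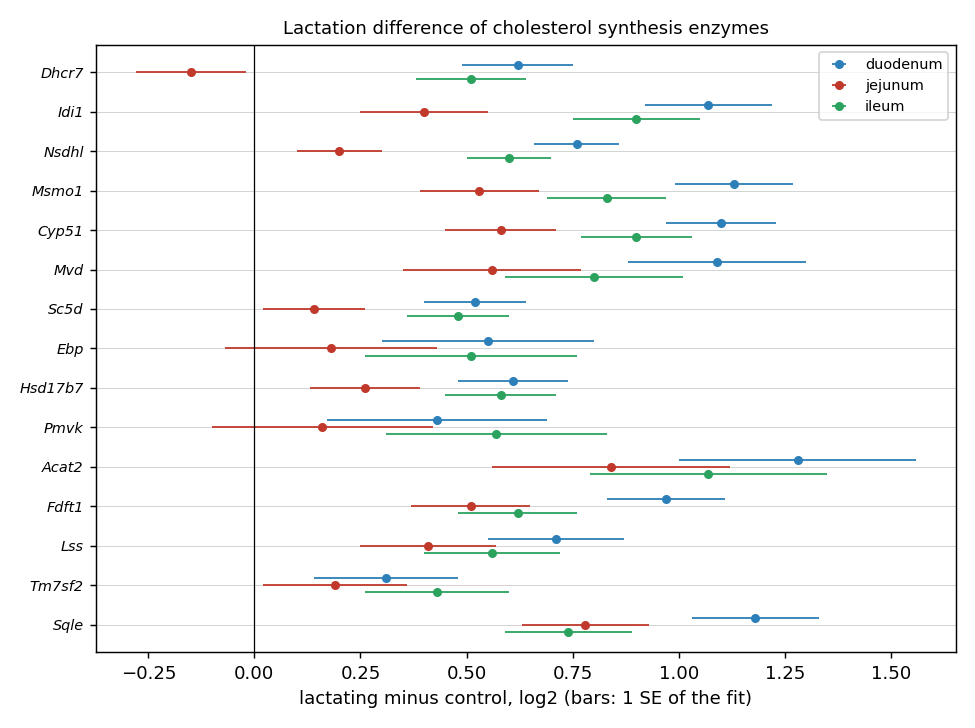
Lactation difference (log2, horizontal axis) of 15 measured cholesterol synthesis enzymes in duodenum (blue), jejunum (red) and ileum (green), with bars of 1 standard error of the fit, ordered by jejunal contrast. The red point lies left of the blue point for every enzyme, and for Dhcr7, the lowest contrast, it lies left of 0.

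Scd2, a desaturase whose promoter holds the 2 CCAAT matches shown above, rose in the other segments as well. Its values rose from 7.04, 7.32, 7.53 and 7.68 to 9.05, 8.67, 8.96 and 9.19 in the duodenum and from 7.93, 8.61, 9.14 and 9.22 to 10.55, 10.00, 10.74 and 11.25 in the ileum. In the jejunum they were 6.79, 6.39, 6.61 and 6.85 in control and 6.65, 7.02, 7.31 and 6.94 in lactating pools, which overlap. The rise was 2.98-fold in the duodenum and 3.75-fold in the ileum, and the jejunal difference was 0.32 (adjusted p = 0.657). The contrast was -1.42 ± 0.27 (adjusted p = 0.0303), and it ended when any pool but lactating pool 2 was left out, at an adjusted p of 0.0543 to 0.143. Scd and Scd2 thus had low contrasts by different routes: Scd fell in the jejunum, and Scd2 rose in the other segments.

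Srebf1, the gene of the factor that drives fatty acid synthesis, had a contrast of the other sign. It rose by 0.71 in the jejunum (adjusted p = 0.000795), from 8.03, 8.22, 8.18 and 8.17 to 8.87, 8.81, 8.82 and 8.98, and differed by 0.27 in the duodenum and 0.13 in the ileum without passing. Its contrast of 0.51 ± 0.11 was not called (adjusted p = 0.059) but passed with the replicate block (0.0444). Among the 8 measured Srebp regulators and genes of LDL uptake no other was called for the contrast under either fit. Insig1, which holds Srebp back and is itself switched on by it, rose in all 3 segments, by 1.26, 0.66 and 0.53, with a contrast of -0.24 ± 0.14 (adjusted p = 0.53).

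Other high contrasts were set by the duodenum. The pancreatic enzyme genes Pnliprp1 (a lipase-related protein), Cela2a (an elastase), Ctrl (a chymotrypsin-like protease) and Rnase1 (pancreatic ribonuclease) had the highest contrasts among the called and named genes, and none of them had a called difference in the jejunum. Pnliprp1 fell in the duodenum from 10.83, 10.15, 11.34 and 11.27 to 3.94, 7.73, 5.02 and 3.39 and stood at 2.87 to 3.41 in all 8 jejunal pools. Its contrast was 3.11 ± 0.62 (adjusted p = 0.0367), with a jejunal difference of 0.08. All 11 measured acinar markers fell in the duodenum (beside 0.283% of all clusters), with a median difference of -4.43, and none was called in the jejunum or the ileum. Their median contrast was 2.44, and 2 of the 11 were called for it (beside 0.108% of all clusters called higher).

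The mean level of the acinar list was 10.53 to 11.84 in control and 5.08 to 9.28 in lactating duodenal pools, and 4.03 to 4.37 in the jejunum of both states. The contrasts of Pnliprp1, Cela2a and Ctrl were lost with the replicate block (adjusted p = 0.0666, 0.0843 and 0.0861) and without any pool but lactating pool 2, whose duodenal array was the highest of the lactating ones. Leaving out other pools gave adjusted p up to 0.185, 0.19 and 0.189. Rnase1 kept its call with the block (adjusted p = 0.0168) and without each single pool, at 2.48 ± 0.34 (adjusted p = 0.000883). It lost the call on per-pool contrasts (adjusted p = 0.0671), where only 3 of the 31 called genes chosen by the naming rule kept theirs.

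Another group was set by the ileum. Reg4, a secreted lectin of the gut epithelium, rose in the ileum from 10.99, 11.03, 10.99 and 10.74 to 12.12, 11.65, 12.14 and 11.97, a 2.05-fold rise. In the jejunum it read 11.73, 11.73, 11.68 and 11.79 in control and 11.65, 11.47, 11.10 and 11.17 in lactating pools, a difference of -0.38 (adjusted p = 0.22). The contrast was -0.92 ± 0.14 (adjusted p = 0.00458), and it was lost without lactating pool 4 (0.056). Cyp4f5, of a family that oxidises fatty acids, fell in the ileum by 0.91 (adjusted p = 0.000396), from 10.21 to 10.32 in control to 9.23 to 9.45 in lactating pools, and differed by 0.25 in the jejunum, which gave a contrast of 0.89 ± 0.14 (adjusted p = 0.0043).

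Slc39a14, a zinc importer, fell in the ileum by 0.59 (adjusted p = 0.00118), with a contrast of 0.52 ± 0.10 (adjusted p = 0.0257). Pcsk6, a proprotein convertase, fell in the ileum by 0.82 (contrast 0.87 ± 0.17, adjusted p = 0.0358), and Epas1, hypoxia-inducible factor 2 alpha, by 0.48 (contrast 0.62 ± 0.12, adjusted p = 0.0305). The jejunal difference of Epas1 was 0.37 (adjusted p = 0.135, and 0.0464 with the replicate block). Its jejunal values were 9.39 to 9.69 in control and 9.77 to 10.01 in lactating pools. For these 3 genes jejunum and duodenum did not differ detectably, and the calls for the contrast ended without 6, 7 and 6 of the 8 pools in turn, with adjusted p up to 0.142, 0.183 and 0.161.

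**Figure D5:**
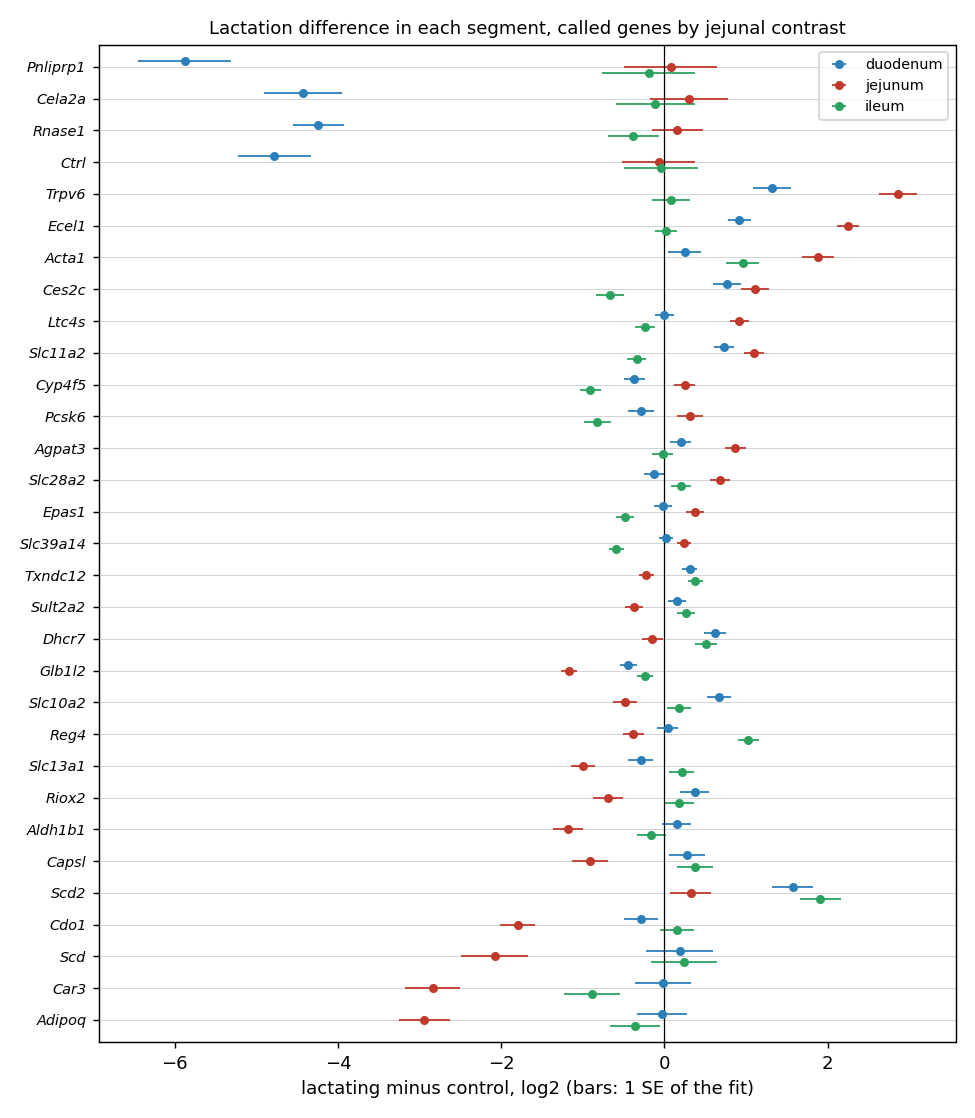
Lactation difference (log2, horizontal axis) in duodenum (blue), jejunum (red) and ileum (green), with bars of 1 standard error of the fit, ordered by contrast. The 31 genes were chosen by the naming rule from the 37 named and called for the jejunal contrast. The top rows stand apart through the duodenum and the rows of Trpv6, Ecel1, Adipoq, Car3 and Cdo1 through the jejunum. Cyp4f5, Pcsk6, Slc39a14 and Reg4 differ most in the ileum.

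Slc10a2, the importer of bile acids, was the only 1 of the 7 measured genes of bile acid uptake and Fxr signalling called for the contrast. Of all clusters, 0.103% were called lower. Over the clusters with a group mean of 6 or more, 1 of the 7 was called higher and 2 were called lower (beside 1.09% and 2.72%). Of the 7, Fgf19 passed that filter only through the ileum, where it was high. Slc10a2 read 12.21 to 12.88 in the ileum, and 6.26, 6.05, 5.69 and 5.71 in control and 5.55, 5.53, 5.41 and 5.30 in lactating jejunal pools. The jejunal difference was -0.48 (adjusted p = 0.158) and the duodenal difference 0.67 (adjusted p = 0.0365, lost without 6 of the 8 pools in turn). The contrast was -0.90 ± 0.16 (adjusted p = 0.015). It was lost without control pool 1 or 2 or lactating pool 3 or 4 (adjusted p = 0.0543, 0.0918, 0.0787 and 0.126). Fabp6, the ileal bile acid carrier, had a contrast of -2.26 ± 0.87 (adjusted p = 0.304), and 1 control jejunal pool read 10.48 where the other 3 read 5.68 to 6.79. Fgf19, the rat gene of the bile acid hormone Fgf15, fell in the ileum by 1.74 (adjusted p = 0.00203), with a contrast of 1.24 ± 0.31 (adjusted p = 0.0936).

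Lists of other cell types gave few calls. None of the 23 measured T cell and cytotoxic lymphocyte markers was called for the contrast. In all, 20 lay below 0 (beside 53.3% of all clusters), with a median of -0.22. For this and the next lists, the median was -0.02 over all clusters and -0.082 over those with a group mean of 6 or more. In the jejunum 3 of them fell (beside 0.473%), among them Prkcq, a kinase of T cell receptor signalling, by 0.75 (adjusted p = 0.00429), and 8 fell with the replicate block (beside 1.82% of all clusters). Their mean level was 6.56 to 7.17 in control and 6.22 to 6.58 in lactating jejunal pools, ranges that just overlap. None of the 10 genes of MHC class II presentation was called, and 9 lay below 0 (beside 53.3%) with a median of -0.27. Over the clusters with a group mean of 6 or more, 1 of these was called lower (beside 2.72%). RT1-Ba, an alpha chain of class II, had the lowest at -0.52 ± 0.14 (adjusted p = 0.117). Of 8 fibroblast and matrix genes, 7 lay above 0 and 1 below it (beside 53.3% of all clusters below 0), with a median of 0.33. Over the clusters with a group mean of 6 or more, 2 of the 8 were called higher (beside 1.09%). In the jejunum 1 of these rose (beside 0.324% of all clusters), or 6 with the replicate block (beside 1.35%), among them the collagen genes Col1a2 and Col3a1 (0.53 and 0.47, adjusted p = 0.0092 and 0.00913 with the block).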

How the data were processed

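Total RNA pools were hybridised to Affymetrix Rat Exon 1.0 ST arrays. The authors processed the scans with RMA in Affymetrix Expression Console (background correction, quantile normalization and summary per transcript cluster), and the deposited values are on the log2 scale; the versions of this software were not given in the sources used here. The medians of the 24 intestinal arrays ran from 4.68 to 4.87. The number of arrays limits the precision, and no array was left out.

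Values were used as deposited. In limma 3.58.1, run under R 4.3.3 with statmod 1.5.0, each of the 19434 clusters was given 6 group means and the pool as a random block (correlation 0.206), empirical Bayes variances and Benjamini-Hochberg adjustment over all clusters. The study's methods also treat the pool as random, in a separate compound-symmetry model for each gene over the 4 tissues; a model of that form over the 3 segments was run as an alternative. Errors are SE of the fit. Tables were made in Python 3.11.15 with pandas 2.3.3, numpy 2.4.6 and matplotlib 3.10.9.

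The members and the 42 gene lists were chosen with earlier results of these data known. Named genes are the 15 highest and 15 lowest called contrasts, called list members (also those called with the block) and up to 3 members of each list with the largest contrasts. Defining markers and a few pathway enzymes were added after their values were seen. A list gene is not reported here and was left out of its list's counts. Of 510 list entries, 385 had a named cluster. Symbols come from the platform's annotation, and 13237 of 13337 named clusters were matched by gene ID to RefSeq. The brightest cluster on average stood for each of the 103 genes with several. Clusters named by 2 symbols or more (612) or none (5485) stayed unnamed.

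Arrays of control and lactating pools of the same number deviated together from their group means (correlations 0.644, 0.446, 0.265 and 0.773 for numbers 1 to 4, against -0.51 to 0.222 for different numbers). Per-pool jejunal contrasts of the same number did not (0.004, -0.084, 0.018 and 0.027). By the array deviations the numbers were taken to pair the pools, and a fit with the number as a replicate block is given beside a result where it changes a call. Simulated data held 19434 clusters, with noise drawn independently for each, a pool correlation of 0.2 and no link between pools of the same number. Changes of 0.5, 1 and 2 in the jejunum alone were called for the contrast in 26%, 74% and 94% of 50 clusters each. A change of -1 was called in 90%, and 4.7% of the calls were unchanged clusters. Since the data show such links, these rates need not hold for them. Other normalizations, filters, models and left-out pools were run as alternatives.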

Additional observations from a re-analysis of the deposited data

Results flagged for a closer look

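The lactation difference of the jejunum differed from the mean of its neighbours, by the test of the difference itself, for 37 named clusters. The 31 of them chosen by the naming rule are listed here. The higher contrasts were 3.11 for Pnliprp1, 2.57 for Cela2a, 2.48 for Rnase1, 2.34 for Ctrl, 2.16 for Trpv6, 1.78 for Ecel1, 1.28 for Acta1, 1.06 for Ces2c, 1.04 for Ltc4s, 0.90 for Slc11a2, 0.89 for Cyp4f5, 0.87 for Pcsk6, 0.78 for Agpat3, 0.64 for Slc28a2, 0.62 for Epas1 and 0.52 for Slc39a14. The lower ones were -2.74 for Adipoq, -2.39 for Car3, -2.30 for Scd, -1.73 for Cdo1, -1.42 for Scd2, -1.24 for Capsl, -1.18 for Aldh1b1, -0.96 for both Riox2 and Slc13a1, -0.92 for Reg4, -0.90 for Slc10a2, -0.83 for Glb1l2, -0.72 for Dhcr7, -0.58 for Sult2a2 and -0.57 for Txndc12.

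In 6 of 62 groups of 4 per-pool contrasts, a single pool lay far from the other 3, where chance gives about 1 in 20 groups. These were lactating pool 2 for Rnase1 (-1.10), control pool 4 for Slc11a2 (-1.88), control pool 1 for Scd2 (-0.69), lactating pool 4 for Aldh1b1 (-2.38), control pool 4 for Reg4 (1.36) and lactating pool 1 for Sult2a2 (0.08).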

How the results depend on the processing

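The jejunal contrast was called for 41 clusters, and this count depended on the model and on the clusters tested. It was 19 without the pool block, 4 on per-pool contrasts and 0 on per-pool contrasts with the replicate block (limma, with 1993 clusters at an unadjusted p under 0.05). It was 297 over the 7806 clusters with a group mean of 6 or more (85 higher and 212 lower, 3.8%), 103 in the upper 70% by group mean, 76 and 62 after quantile normalization over all arrays and within segments, 81 after median centring and 73 with array weights. The share of higher calls was 51.2%, against 34.6% after median centring. The 42 calls with the replicate block shared 26 with the 41, and a mixed model fitted gene by gene shared 16. Without 1 pool the count lay between 13 (without control pool 2) and 71 (without lactating pool 1), and without both pools of a number between 5 and 69.

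Against the duodenum (58 clusters) per-pool contrasts gave 19, the same with the replicate block 0 (1649 at an unadjusted p under 0.05), the mixed model 20, and a group mean of 6 or more 156. Left-out pools gave 12 to 56, and median centring moved the share of higher calls from 63.8% to 53.6%. Against the ileum (42) the values were 22 without the pool block, 8 on per-pool contrasts, 0 with the block added (2013 at an unadjusted p under 0.05), 70 in the mixed model, 227 and 71 under the filters and 9 to 46 with pools left out. Median centring moved the share of higher calls there from 50% to 38.3%. Within segments, the replicate block raised the calls from 134 to 579 in the duodenum, 155 to 616 in the jejunum and 271 to 1083 in the ileum. Array weights gave 299 in the duodenum, and the mixed model gave 101 in the jejunum. Left-out pools gave 49 to 129, 39 to 174 and 48 to 258. Quantile normalization over the 24 arrays moved the share of higher calls in the duodenum from 59.0% to 42.5%. The causes were not tested.

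The 31 called genes chosen by the naming rule kept their direction in all 773 refits, and their calls in 487. With each single pool left out, 10 kept their call: Adipoq, Car3, Cdo1, Glb1l2, Cyp4f5, Slc11a2, Ltc4s, Ecel1, Trpv6 and Rnase1. The replicate block kept 24 of the 31, the mixed model 15, per-pool contrasts 3 and per-pool contrasts with the replicate block 0. Over all clusters the median contrast was -0.017, and no normalization moved it by more than 0.1. Low signal limits Sult2a2, whose values lay between 1.42 and 2.25.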
